A study of Arabidopsis thaliana with 12 samples.

Results

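Leaves of an Arabidopsis thaliana line that overexpresses the transcription factor ERF34 were compared with wild-type leaves after 1 day in salt, across all 33597 named genes of the deposited count table. The comparison takes 6 of the study's 12 libraries, 3 from overexpressor leaves and 3 from wild-type leaves, both floated on 100 mM NaCl. The other 6 libraries, 3 of each genotype, are mock leaves without NaCl, and they served to show which differences between the genotypes were there without salt. By its title, the study asks whether ERF34 restrains salt-induced ageing of leaves.

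The overexpressor is line #1, a single transgenic line in the Col-0 background, in which the CsVMV promoter drives the ERF34 coding sequence with GFP at the N-terminus. The wild type is Col-0 without a transgene. Per the labels' protocols, the third and the fourth rosette leaves were taken at 16 DAE (not spelled out there) and floated, detached, on 3 mM MES (pH 5.8) with 100 mM NaCl at 22 °C with days of 16 h and nights of 8 h. The labels describe the other leaves as mock with no further detail of their handling, such as whether they were detached and floated. Effects of NaCl and of such handling thus cannot be told apart in comparisons with mock leaves. With 1 line, effects of ERF34 and of the insertion site or of other changes carried by that line cannot be told apart.

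ERF34 belongs to the AP2/ERF family of plant transcription factors and, by the reference annotation of its locus AT2G44940, to the A-4 group of the DREB subfamily. DREB factors of other groups bind the dehydration-responsive element, a short promoter sequence with the core CCGAC, and turn on genes for cold and drought tolerance, whereas many ERF factors bind the GCC box of defence genes. In salt, leaves close stomata, make osmolytes and move sodium into vacuoles, and under lasting stress they age early, break down chlorophyll and send their nitrogen elsewhere in the plant.

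Several promoters are printed here because ERF34 is a DNA-binding factor of a family with known target sequences, so that the letters can be read beside the values given below. Those of called genes were picked after the values were seen because they hold a match. Each is the 250 bases before the annotated gene start in TAIR10.1, read 5′ to 3′ on the gene's own strand, and capitals mark, on either strand, the dehydration-responsive hexamers (CCGAC with A or G before it) and the GCC box (GCCGCC). BOR5 (chr1:28107572-28107821, plus strand), AT1G24735 (chr1:8757614-8757863, plus strand) and AT2G45720 (chr2:18832836-18833085, plus strand) were higher in the overexpressor in both treatments, and they are the 3 with a hexamer among 16 promoters of genes called in the same direction in both treatments (18.8%). ER (chr2:11214663-11214912, minus strand) and IAA5 (chr1:5366498-5366747, minus strand) were higher in salt. RD29A (chr5:21240467-21240716, plus strand) is the classic gene with dehydration-responsive elements, and AACT1 (chr5:24608355-24608604, plus strand) was lower in salt and holds a pair of GCC boxes.
BOR5: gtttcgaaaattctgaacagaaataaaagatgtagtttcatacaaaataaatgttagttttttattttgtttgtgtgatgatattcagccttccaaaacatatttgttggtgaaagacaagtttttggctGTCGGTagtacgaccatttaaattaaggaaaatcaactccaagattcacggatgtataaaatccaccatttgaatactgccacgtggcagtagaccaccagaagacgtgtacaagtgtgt
AT1G24735: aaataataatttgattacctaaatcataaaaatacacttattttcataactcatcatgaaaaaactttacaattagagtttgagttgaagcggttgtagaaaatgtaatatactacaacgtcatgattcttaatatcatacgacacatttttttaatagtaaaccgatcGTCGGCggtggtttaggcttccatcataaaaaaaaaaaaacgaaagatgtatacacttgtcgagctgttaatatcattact
AT2G45720: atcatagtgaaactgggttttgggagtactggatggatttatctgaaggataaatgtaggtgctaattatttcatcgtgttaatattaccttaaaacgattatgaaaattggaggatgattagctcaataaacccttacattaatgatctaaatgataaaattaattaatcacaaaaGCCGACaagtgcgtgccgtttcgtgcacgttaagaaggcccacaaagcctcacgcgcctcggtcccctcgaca
ER: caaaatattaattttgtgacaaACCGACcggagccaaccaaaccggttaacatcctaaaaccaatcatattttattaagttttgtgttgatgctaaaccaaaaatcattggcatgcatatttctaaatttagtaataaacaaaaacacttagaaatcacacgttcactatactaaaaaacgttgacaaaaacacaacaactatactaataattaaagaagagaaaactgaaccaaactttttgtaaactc
IAA5: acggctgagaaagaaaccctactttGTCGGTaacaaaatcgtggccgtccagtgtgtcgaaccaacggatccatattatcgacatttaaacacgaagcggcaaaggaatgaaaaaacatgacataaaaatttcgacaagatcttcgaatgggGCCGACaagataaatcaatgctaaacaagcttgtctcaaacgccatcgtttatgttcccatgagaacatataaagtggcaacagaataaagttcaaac
RD29A: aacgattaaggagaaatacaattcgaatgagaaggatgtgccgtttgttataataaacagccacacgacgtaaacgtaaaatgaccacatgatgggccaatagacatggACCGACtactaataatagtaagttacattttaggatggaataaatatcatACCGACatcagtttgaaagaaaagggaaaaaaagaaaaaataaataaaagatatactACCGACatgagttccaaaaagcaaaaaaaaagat
AACT1: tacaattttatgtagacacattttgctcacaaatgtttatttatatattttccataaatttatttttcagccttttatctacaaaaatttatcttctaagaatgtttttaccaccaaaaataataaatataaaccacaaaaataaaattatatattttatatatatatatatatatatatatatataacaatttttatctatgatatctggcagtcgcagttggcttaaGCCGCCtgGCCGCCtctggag

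Of 18744 promoters of tested nuclear genes, 1504 (8.02%) held at least 1 such hexamer, ACCGAC in 5.34% and its variant GCCGAC in 2.88%, on either strand. The share was 15.1% (58 of 384) among genes higher in the overexpressor in salt and 4.1% (18 of 439) among genes lower there. For TTGAC, the core of the W box that WRKY factors bind, the shares were 38% for the higher genes, 59% for the lower genes and 45.3% for all. GCCGCC was in 1.82% of promoters of higher genes, 3.19% of those of lower genes and 2.06% of all, and ACGTG, the core of the abscisic acid response element, in 24.7%, 28.7% and 23.7% of the same 3 sets. RD29A holds 3 copies of ACCGAC, which start 141, 91 and 34 bases before the gene. These matches are counts of letters, not binding sites, and their shares were not tested.

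Library totals over named genes were 11361715 to 12358362 counts in overexpressor salt libraries and 14301312 to 18398594 in wild-type salt libraries, so every overexpressor library was the shallower. Levels below are CPM, each gene's counts scaled to a common library size with TMM factors, and means are given ± SD over n = 3 libraries. A count of 0 in all 3 libraries allows up to 0.0812 CPM in overexpressor salt leaves and 0.0606 CPM in wild-type salt leaves, taking 3 counts over the group, for counting error only. In a principal component analysis of the 6 salt libraries, the first component held 46.4% of the variance, with the overexpressor at -67.6, -16.9 and -24.3 and the wild type at 8.70, 46.9 and 53.2. The genotypes did not overlap on it, and wild-type replicate 1 lay nearest to the overexpressor. As a check of the labelled tissue, 45 light-harvesting and photosystem genes summed to 64249 to 75942 CPM in the overexpressor and 50799 to 61256 CPM in wild type, while 9 root, flower and meristem markers summed to 2.54 to 3.52 CPM in the overexpressor and 1.79 to 3.88 CPM in wild type. The 6 guard cell and epidermis markers summed to 860 to 1296 CPM in the overexpressor and 853 to 923 CPM in wild type, and the 5 vascular markers to 469 to 578 CPM in the overexpressor and 514 to 569 CPM in wild type. In whole leaves, fewer cells of a type and less RNA per cell cannot be told apart.

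Salt-treated overexpressor leaves differed from salt-treated wild-type leaves in 829 of 18886 genes tested (4.39%), 390 higher (2.07%) and 439 lower (2.32%), at an adjusted p under 0.05, which is what "called" means here. The falls were the larger changes: 106 genes were at least 4-fold lower and 26 at least 4-fold higher, and the median log2 fold change was 0.94 among the higher and -1.13 among the lower genes, against 0.02 over all genes tested. In mock leaves the same test called 19 genes (0.101%), 12 higher and 7 lower. The difference between the salt and the mock effect, tested as the interaction of genotype with salt, was called for 0 genes by edgeR (lowest adjusted p = 0.0530, with 2580 genes at an unadjusted p under 0.05), for 51 by limma and for 659 by DESeq2. The edgeR count became 11 with library totals in place of TMM and 8 with no filter on low counts, and it was 73 without overexpressor salt replicate 1, 67 without wild-type salt replicate 1, 36 without wild-type mock replicate 2 and 6 without overexpressor mock replicate 2. Whether single genes differed between the salt and the mock effect thus depended on the tool, the settings and the libraries. All 829 called genes had no overlap between the 3 libraries of each genotype, and 25.9% of all genes tested had none.

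The number of calls rested on single libraries. It was 45 without wild-type replicate 3, 60 without wild-type replicate 2, 77 without overexpressor replicate 3, 347 without overexpressor replicate 2, 599 without overexpressor replicate 1 and 1017 without wild-type replicate 1. It also fell to 417 without overexpressor mock replicate 1 and 385 without overexpressor mock replicate 3, which enter the shared estimate of the spread. When only the 6 salt libraries were fitted, 13 genes were called, 3 higher and 10 lower, and 12 of these were among the 829. Of the 829 genes, 40 were called in all 6 fits that each left out 1 salt library, 14 higher and 26 lower. These 40 were picked after their values were seen and are named stable calls here. The mock libraries stayed in those 6 fits, and most of the 40 were not called when only the salt libraries were fitted.

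**Figure D1:**
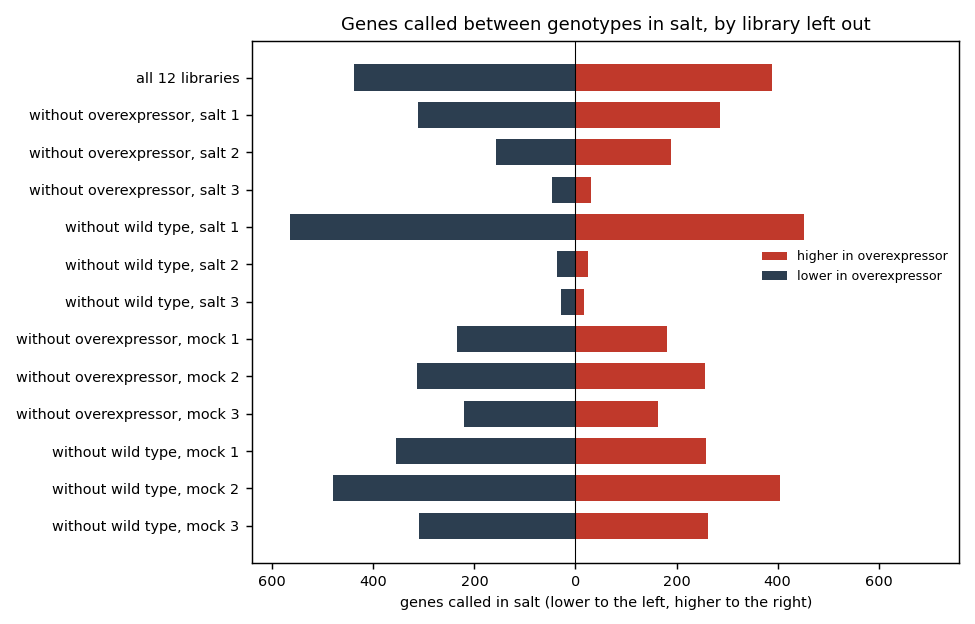
Genes called between overexpressor and wild type in salt (horizontal axis, number of genes), higher to the right in red and lower to the left in dark blue, with all 12 libraries and with each library left out. The total of 829 shrinks to 45 without wild-type salt replicate 3 and grows to 1017 without wild-type salt replicate 1.

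ERF34 itself was high in every overexpressor library, at 768, 1028 and 1006 CPM, against 16.4, 5.94 and 16.7 CPM in wild type. It was 71.7-fold higher in the overexpressor in salt (log2 6.16, SE 0.58, adjusted p = 0.00154), where reads of the transgene's coding sequence count to the same gene. In mock leaves it averaged 1051 ± 46.0 CPM in the overexpressor and 8.82 ± 5.52 CPM in wild type. The line thus carried the excess transcript in both treatments.

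A small set of genes was nearly silent in the overexpressor whatever the treatment. MRD1, named for its fall in the methionine over-accumulation mutant mto1, was at 0.448, 0.704 and 0.246 CPM in overexpressor salt leaves, against 42.0, 37.7 and 31.0 CPM in wild-type salt leaves (log2 -6.29, SE 0.30, adjusted p = 8.0e-06). In mock leaves it averaged 1.06 ± 0.37 CPM in the overexpressor and 38.3 ± 3.85 CPM in wild type (log2 -5.14, adjusted p = 2.26e-05). MRD1 (chr1:19963047-19964712, minus strand) overlaps HEI10 (AT1G53490), a gene for a RING protein on the opposite strand that was also lower (log2 -2.37 in salt and -2.01 in mock). The kit was strand-specific, but the strand setting of the counting is not given, so reads of the pair may be shared. Of the 65 genes named by the rules given below, 15 overlap a gene on the opposite strand, and the same limit applies. Among them are MRD1, AT1G24735, CSD1, EXT3 and IAA5.

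AT2G01422, annotated as a non-coding RNA, was at 0.0747, 0.616 and 0.0820 CPM in overexpressor salt leaves, against 37.7, 25.5 and 17.3 CPM in wild-type salt leaves (log2 -6.72, adjusted p = 0.000553, with log2 -8.27 once overexpressor replicate 2 was left out). AT3G60170 had 1 count in the 3 overexpressor salt libraries and 375 counts in the wild-type ones, a ratio of 280 (95% counting interval 49.9 to 11083), and 0 counts in overexpressor mock leaves. It is annotated as an uncharacterised protein, and its fitted log2 fold change of -7.71 became -9.74 without overexpressor replicate 3. AT5G24240, annotated as a phosphatidylinositol 4-kinase gamma-like protein, averaged 0.879 ± 0.734 CPM in the overexpressor and 25.8 ± 14.0 CPM in wild type (log2 -4.84, adjusted p = 0.0104, or log2 -5.61 without overexpressor replicate 3). All 3 were also called lower in mock leaves and are stable calls in salt. AT5G41660 had 0 counts in every overexpressor library of both treatments, against 15.6, 5.35 and 7.28 CPM in wild-type salt leaves, and was at least 116-fold lower (adjusted p = 0.0215). Its call was lost without overexpressor replicate 3 or wild-type replicate 2 or 3 (highest adjusted p = 0.0710), and it was not called in mock leaves (adjusted p = 0.103), where wild type averaged 8.5 ± 4.76 CPM.

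Other genes were higher in the overexpressor in both treatments by smaller steps. BOR5, of the borate transporter family, was at 13.2, 23.1 and 22.1 CPM in overexpressor salt leaves, against 5.18, 5.35 and 4.2 CPM in wild-type salt leaves (log2 1.98, SE 0.25, adjusted p = 0.0084), and averaged 61.4 ± 12.6 CPM in overexpressor and 17.3 ± 3.88 CPM in wild-type mock leaves. ARP9, an actin-related protein, was 3.3-fold higher in salt (adjusted p = 0.00154), and AT1G24735, a methyltransferase gene, was 4.73-fold higher (adjusted p = 0.000488). NPC2, a phospholipase C, was 2.64-fold higher. These 4 are stable calls. In all, 17 genes were called in both treatments, which is 89.5% of the 19 mock calls and 2.05% of the 829 salt calls, and 16 of them had the same direction. The exception was AT2G39530, annotated in an uncharacterised protein family, at 18.1 ± 3.60 CPM in overexpressor and 35.2 ± 2.52 CPM in wild-type salt leaves, but 20.6 ± 5.99 CPM in overexpressor and 6.29 ± 1.36 CPM in wild-type mock leaves (interaction adjusted p = 0.0530). Its salt call was lost without any one of the 6 salt libraries (adjusted p = 0.0712 to 0.136). QQS, an orphan gene linked to starch, was lower in both treatments, and its salt call was lost without wild-type replicate 2 (adjusted p = 0.0608). Among the rest, XIB (a myosin), AT5G05400 (a disease resistance protein of the NB-ARC class), AT2G45720 and AT3G19470 were higher in both and AT2G07080 was lower in both. Of these 5 only AT3G19470 is a stable call, and the lost calls had adjusted p up to 0.0812.

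**Figure D2:**
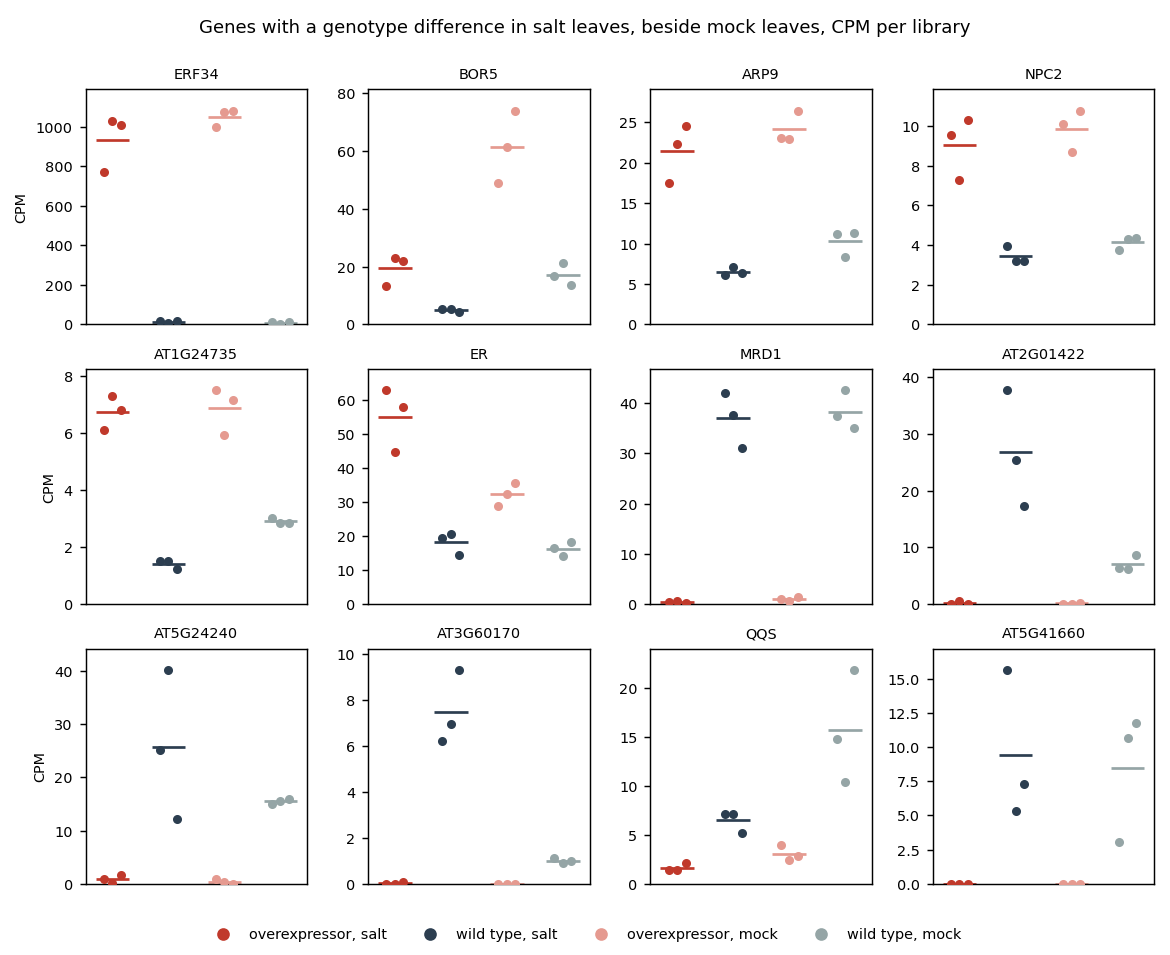
CPM per library (points) and group mean (bar) of 12 genes, with overexpressor salt, wild-type salt, overexpressor mock and wild-type mock leaves from left to right in each panel and a vertical axis from 0. ERF34 reaches 768 to 1028 CPM in overexpressor salt leaves, and MRD1 stays below 1 CPM there against 31.0 to 42.0 CPM in wild type.

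Across all genes tested, the log2 fold changes in salt and in mock had a Pearson r of 0.21, as a description across genes, which are not independent replicates. The salt and mock comparisons share no library. Genes called higher in salt had a median log2 fold change of 0.19 in mock leaves, with 276 of 390 on the same side, and genes called lower had a median of 0.03 in mock leaves, with 206 of 439 on the same side.

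**Figure D3:**
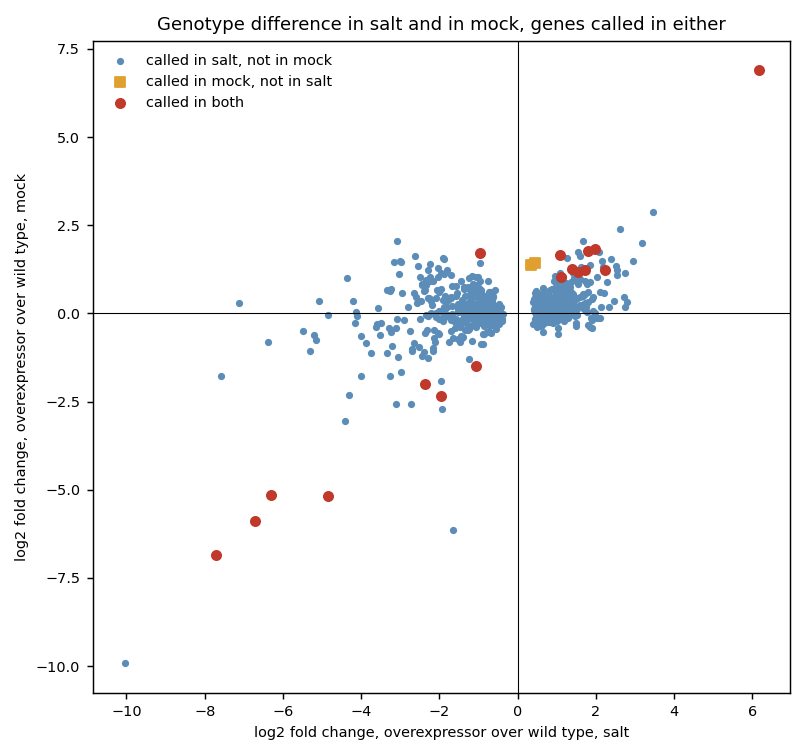
Log2 fold change of overexpressor over wild type in salt (horizontal) and in mock leaves (vertical) for genes called in either, with the 17 called in both as red circles, those called in salt alone as blue circles and those called in mock alone as orange squares. Genes called lower in salt have a median of 0.03 in mock leaves, and genes called higher one of 0.19.

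Genes for 3 enzymes on the way to camalexin, the main antimicrobial indole compound of Arabidopsis, were lower in overexpressor salt leaves. CYP71A13, which makes indole acetonitrile, was at 43.1, 42.0 and 48.6 CPM in the overexpressor, against 282, 676 and 394 CPM in wild type (log2 -3.34, SE 0.73, adjusted p = 0.0345). PAD3, the last enzyme of the pathway, was at 102.5, 171 and 164 CPM in the overexpressor, against 501, 964 and 626 CPM in wild type (log2 -2.26, SE 0.52, adjusted p = 0.0410). CYP79B2, which feeds both camalexin and indole glucosinolates from tryptophan, was 4.71-fold lower (adjusted p = 0.0443). In each of the 3 genes all overexpressor libraries lay below all wild-type ones, as in every gene called lower. Of all genes tested, 25.9% had no overlap in either direction. In mock leaves the log2 fold changes of CYP71A13, PAD3 and CYP79B2 were 0.65, 0.45 and -0.01, and none was called. The glucosinolate and camalexin list as a whole had 3 of 24 tested members lower and 0 higher (12.5% called, against 4.39% of all genes), with a median log2 fold change of -0.37. All 3 calls were lost without any one of overexpressor replicates 1, 2 or 3 or wild-type replicates 2 or 3 (adjusted p = 0.0747 to 0.141). CYP71A13 has a close copy in CYP71A12 (log2 -1.94, adjusted p = 0.106), and reads may be split between them.

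Defence proteins that leaves secrete were the list with the lowest median, -1.95 on the log2 scale over 12 tested members, with 3 lower and 0 higher (25% called, against 4.39% of all genes). In mock leaves the median of this list was -1.0, with 0 called. Of the 12 members, 9 lay below 0 and 3 above it in salt. Their summed level overlapped between genotypes, at 1060, 755 and 797 CPM in the overexpressor and 958.5, 1254 and 991 CPM in wild type. PR4, a chitin-binding protein, was at 64.2, 41.4 and 41.4 CPM in overexpressor salt leaves, against 136, 424 and 281 CPM in wild type (log2 -2.52, SE 0.42, adjusted p = 0.0180). PR3, a basic chitinase, was 6.49-fold lower (adjusted p = 0.0179). KTI1, a protease inhibitor, had 3 counts in overexpressor and 384 in wild-type libraries, a ratio of 95.5 (95% counting interval 32.4 to 465), and wild-type libraries ran from 0.887 to 13.2 CPM. Among genes outside the lists, the glycosyl hydrolase gene AT4G16260 was at 3.44, 1.94 and 4.51 CPM in the overexpressor, against 36.9, 205 and 150 CPM in wild type (log2 -5.30, SE 0.62, adjusted p = 0.00624), and the acyltransferase gene AACT1 was 13.4-fold lower (adjusted p = 0.00296). Both, and the trypsin inhibitor TI1 (3.05-fold lower), are stable calls. The calls of PR3 and PR4 were lost without overexpressor replicate 3 or wild-type replicate 2 or 3 (highest adjusted p = 0.0692), and that of KTI1 without any salt library but wild-type replicate 1 (highest adjusted p = 0.112). The fitted log2 fold change of KTI1, -6.38, became -5.68 without wild-type replicate 2.

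Cell wall and secretory genes were among the stable falls. Prx37, a class III peroxidase of the cell wall, was at 3.66, 4.13 and 5.41 CPM in overexpressor salt leaves, against 36.8, 133 and 76.1 CPM in wild type (log2 -4.22, SE 0.58, adjusted p = 0.00879). In mock leaves it averaged 111 ± 4.5 CPM in the overexpressor and 86.4 ± 51.2 CPM in wild type. Stable calls of smaller size were the extensin-like gene AT2G43150 (2.49-fold lower), the fructan exohydrolase cwINV6 (2.63-fold lower), the berberine-family oxidase gene AT2G34810 (3.5-fold lower) and the vacuolar sorting receptor VSR7 (2.44-fold lower). QRT3, annotated as a pectin lyase-like protein, was 3.93-fold lower and a stable call. In that family, chosen after its values were seen, 40 genes were tested. Of these, 6 were called higher and QRT3 was the single one called lower (17.5% called, against 4.39% of all genes).

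EXT3, an extensin, was at 274 ± 37.3 CPM in overexpressor salt leaves and 1016 ± 317 CPM in wild type (log2 -1.89, adjusted p = 0.018). ACA2, annotated as an alpha carbonic anhydrase, was at 1.57, 0.352 and 2.38 CPM in the overexpressor, against 15, 47.7 and 30.1 CPM in wild type, and BGLU45, a beta-glucosidase, averaged 0.227 ± 0.197 CPM in the overexpressor and 7.7 ± 5.29 CPM in wild type (log2 -5.09, or -4.47 without overexpressor replicate 1). The calls of EXT3, ACA2 and BGLU45 were lost without overexpressor replicate 3 or wild-type replicate 2 or 3 (adjusted p = 0.0504 to 0.071). RABA1e, a small GTPase of membrane traffic, was lower in salt, at 2.13 ± 0.33 CPM in the overexpressor and 11.6 ± 2.76 CPM in wild type, a stable call. In mock leaves RABA1e stood at 8.23 ± 1.16 CPM in the overexpressor and 4.67 ± 1.98 CPM in wild type (interaction adjusted p = 0.053).

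Immune signalling genes were called at about the share of all genes. Of the salicylate and N-hydroxypipecolate list 1 of 24 tested members was lower and 0 higher (4.17% called, against 4.39% of all genes, median log2 -0.30), and of immune receptors and receptor-like kinases 1 of 21 was lower and 0 higher (4.76% called, median log2 -0.47, with 20 of 21 below 0). The receptor kinase called was WAK1, a wall-associated kinase, at 1053, 873 and 801 CPM in overexpressor salt leaves, against 1426, 1304 and 1325 CPM in wild type (log2 -0.57, SE 0.14, adjusted p = 0.0430). In mock leaves WAK1 was at 370 ± 39 CPM in the overexpressor and 233 ± 18 CPM in wild type (log2 0.67, adjusted p = 0.129, interaction adjusted p = 0.0689). The salicylate member called was AT5G52810 (log2 -0.63, adjusted p = 0.0416). The WAK1 call was lost without any salt library but overexpressor replicate 1 (highest adjusted p = 0.140), and that of AT5G52810 without any of the 6 (highest adjusted p = 0.141).

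Senescence genes were lower in the overexpressor where they were called. Of 30 tested senescence markers and regulators 5 were lower and 0 higher (16.7% called, against 4.39% of all genes), with a median log2 fold change of -0.78 and 25 of 30 below 0. DIN2, a dark-induced beta-glucosidase, was at 0.597, 0.352 and 1.23 CPM in overexpressor salt leaves, against 14.2, 42.3 and 25.6 CPM in wild type (log2 -5.21, SE 0.64, adjusted p = 0.00733), and its log2 fold change was -5.8 without overexpressor replicate 3. DIN11, a dark-induced oxygenase outside the lists, was at 1.57, 2.02 and 4.18 CPM in the overexpressor, against 36.2, 142 and 100 CPM in wild type (log2 -5.17, SE 0.69, adjusted p = 0.00879). Both are stable calls. In mock leaves DIN2 averaged 0.64 CPM in the overexpressor and 1.02 CPM in wild type, and DIN11 averaged 0.432 CPM in the overexpressor and 0.75 CPM in wild type.

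SAG13, a senescence-associated dehydrogenase, was at 23.0, 31.5 and 35.1 CPM in overexpressor salt leaves, against 76.9, 220 and 160 CPM in wild type (log2 -2.35, SE 0.39, adjusted p = 0.0182). The other members called were YLS5, WRKY45, which is known to promote senescence, and JUB1, a NAC factor known to delay it (log2 -1.52, -1.90 and -2.09). Of the genes the study's theme points to, ORE1, a NAC factor that drives senescence, was at 14.1, 23.4 and 24.6 CPM in the overexpressor, against 30, 62.6 and 48.7 CPM in wild type, and was not called (log2 -1.19, adjusted p = 0.133). NAP, another such NAC factor, was not called either (log2 -1.47, adjusted p = 0.0608). It passed with DESeq2 (adjusted p = 0.00458) and with edgeR without wild-type replicate 1 (adjusted p = 0.0185). These 2 settings called more genes in all, 1799 and 1017, against 829 in the main test. SAG12, the late senescence protease, had 0 counts in all libraries. NYE1, which starts chlorophyll breakdown, differed by less than the spread between libraries (log2 -0.15, adjusted p = 0.818). Its relative NYE2 was 3.24-fold lower (adjusted p = 0.0461), the 1 call among 11 chlorophyll breakdown genes (9.09%, against 4.39% of all genes). GDH2, a glutamate dehydrogenase (log2 -1.68, adjusted p = 0.0425), was the 1 call among 16 autophagy and nitrogen remobilisation genes (6.25%, against 4.39% of all genes). The calls of SAG13, WRKY45, JUB1, YLS5, NYE2 and GDH2 were each lost without overexpressor replicate 3 and without wild-type replicate 2 or 3, and all but SAG13 and WRKY45 also without overexpressor replicates 1 and 2 (highest adjusted p = 0.165).

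**Figure D4:**
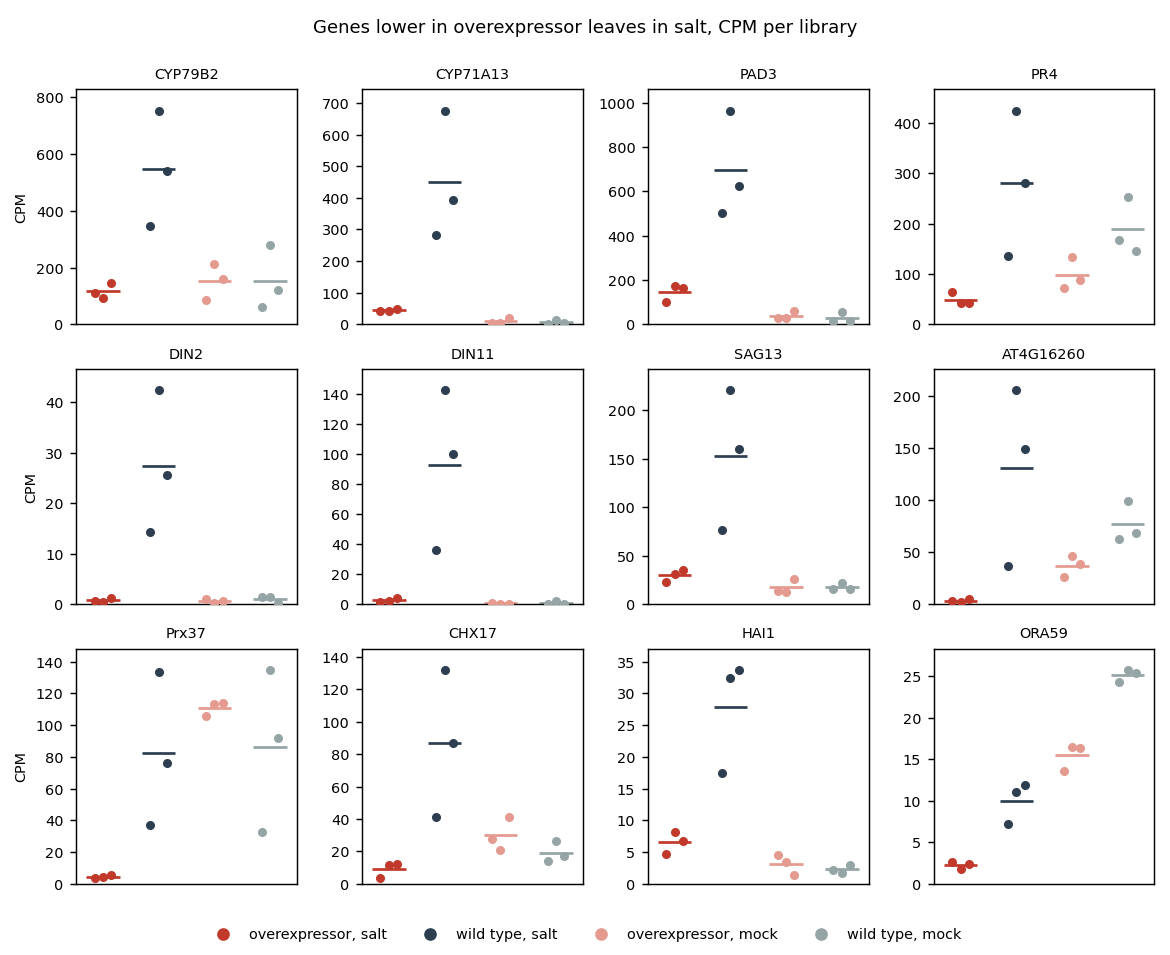
CPM per library (points) and group mean (bar) of 12 genes called lower in overexpressor salt leaves, in the order overexpressor salt, wild-type salt, overexpressor mock and wild-type mock from left to right. DIN11 reaches 36.2 to 142 CPM in wild-type salt leaves and at most 4.18 CPM in overexpressor salt leaves.

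Hormone genes gave scattered calls, 1 or 2 in each list of 12 to 34 genes, beside 4.39% of all genes. ORA59, an ERF factor that joins ethylene and jasmonate signals to defensin genes, was at 2.61, 1.85 and 2.38 CPM in overexpressor salt leaves, against 7.16, 11.1 and 11.9 CPM in wild type (log2 -2.13, SE 0.21, adjusted p = 0.00156), a stable call and the 1 among 18 stress and defence ERF factors. Of 34 jasmonate genes 1 was lower and 0 higher (median log2 -0.72), namely ACX1, a beta-oxidation enzyme of jasmonate synthesis (2.33-fold lower). Of 29 abscisic acid genes 1 was lower, HAI1, a phosphatase that restrains the hormone's signal (log2 -2.09, adjusted p = 0.0218). HAI1 was at 6.54 ± 1.71 CPM in the overexpressor and 27.8 ± 9.06 CPM in wild type. Among 19 ethylene genes ACO4, an ACC oxidase, was lower (397 ± 103 CPM in the overexpressor and 921 ± 226 CPM in wild type) and ACS4, an ACC synthase, was higher (log2 2.08, adjusted p = 0.0411). The auxin genes IAA5, an early response gene (log2 2.02), and AUX1, an influx carrier (log2 1.00), were the 2 calls among 19, both higher, and CKX5, a cytokinin oxidase (log2 -2.11), was the 1 call among 12 cytokinin genes. Apart from ORA59, these hormone genes, 7 in all, lost their calls without overexpressor replicate 3 and without wild-type replicate 2 or 3. Of the 7 calls, 4 were also lost without overexpressor replicate 1 and 3 without overexpressor replicate 2 (highest adjusted p = 0.136).

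Of the genes of salt and water tolerance, 1 was called in each of the lists of dehydration (5.88% of members), ion transport (5%), osmolyte (8.33%) and aquaporin genes (5.88%), against 4.39% of all genes. RD29A, the dehydration marker whose promoter holds 3 ACCGAC, was at 393, 277 and 180 CPM in overexpressor salt leaves, against 131, 177 and 63.4 CPM in wild type, and was not called (log2 1.2, SE 0.53, adjusted p = 0.219). ERD10, a dehydrin, was at 334 ± 46.6 CPM in the overexpressor and 155 ± 59.6 CPM in wild type (adjusted p = 0.163), and RD29B was at 1.49 ± 0.487 CPM in the overexpressor and 2.3 ± 1.03 CPM in wild type (adjusted p = 0.429). Of 17 dehydration genes 1 was called, the caleosin gene RD20, which was 2.37-fold lower. CHX17, a cation/proton exchanger, was at 3.36, 11.5 and 12.2 CPM in the overexpressor, against 41.3, 132 and 86.8 CPM in wild type (log2 -3.27, SE 0.55, adjusted p = 0.0182), the 1 call among 20 ion transport genes. The galactinol synthase GOLS3 (log2 2.55, at 1.23 ± 0.24 CPM in the overexpressor and 0.210 ± 0.118 CPM in wild type) and the aquaporin TIP2;2 (log2 0.69) were higher, the single calls among 12 osmolyte and 17 aquaporin genes. Of the 13 tested ERF34 relatives and DREB factors 0 were called by edgeR, DESeq2 or limma, with 0 at an unadjusted p under 0.05. The calls of RD20, CHX17, GOLS3 and TIP2;2 were each lost without overexpressor replicate 3 and without wild-type replicate 2 or 3. Of these 4 calls, 2 were also lost without overexpressor replicate 1, 3 without overexpressor replicate 2 and 1 without wild-type replicate 1 (highest adjusted p = 0.148).

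Antioxidant enzymes had 3 of 21 members lower and 0 higher (14.3% called, against 4.39% of all genes). APX1, the cytosolic ascorbate peroxidase, was at 480 ± 49.8 CPM in overexpressor salt leaves and 877 ± 120 CPM in wild type (log2 -0.87, adjusted p = 0.0218), CSD1, a copper/zinc superoxide dismutase, was 2.06-fold lower and GR1, a glutathione reductase, 1.45-fold lower. In mock leaves APX1 stood at 877 ± 131 CPM in the overexpressor and 855 ± 116 CPM in wild type. The 3 calls were each lost without overexpressor replicate 3 and without wild-type replicate 3. Of these, 2 were also lost without overexpressor replicate 2 and 2 without wild-type replicate 2 (highest adjusted p = 0.161).

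Photosynthesis genes lay mostly above 0 as groups, with 0 calls by edgeR. All 26 Calvin cycle and photorespiration genes had a log2 fold change above 0 (median 0.38), as had 43 of 45 light-harvesting and photosystem genes (median 0.27) and 17 of 20 chlorophyll synthesis genes (median 0.35), against a median of 0.02 over all genes. In mock leaves the medians of these 3 lists were -0.13, -0.13 and -0.15. At an unadjusted p under 0.05 there were 20 Calvin cycle, 14 light-harvesting and 5 chlorophyll synthesis genes. DESeq2 called 9, 2 and 2 in these lists, and limma 0. Of all 18886 genes tested, 4203 had an unadjusted p under 0.05, DESeq2 called 1799 and limma called 933. Members of such lists vary together, so the counts above 0 are not independent.

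Anthocyanin and flavonol genes had the highest list median, 1.17 on the log2 scale over 15 tested members, with 0 calls by edgeR, DESeq2 or limma and 0 at an unadjusted p under 0.05. Their summed level was 1669, 220 and 221 CPM in the overexpressor and 602, 402 and 234 CPM in wild type. Overexpressor replicate 1 alone was high, and the other overexpressor libraries were below every wild-type library. Of the stress-related lists not yet described, 13 heat shock and chaperone genes, 13 clock genes and 12 alternative respiration genes had medians of 0.22, 0.11 and -0.21, and edgeR called 0 in each. At an unadjusted p under 0.05 there were 6, 0 and 2, beside 4203 of all 18886 genes tested. DESeq2 and limma each called 0, 0 and 1 in these lists.

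**Figure D5:**
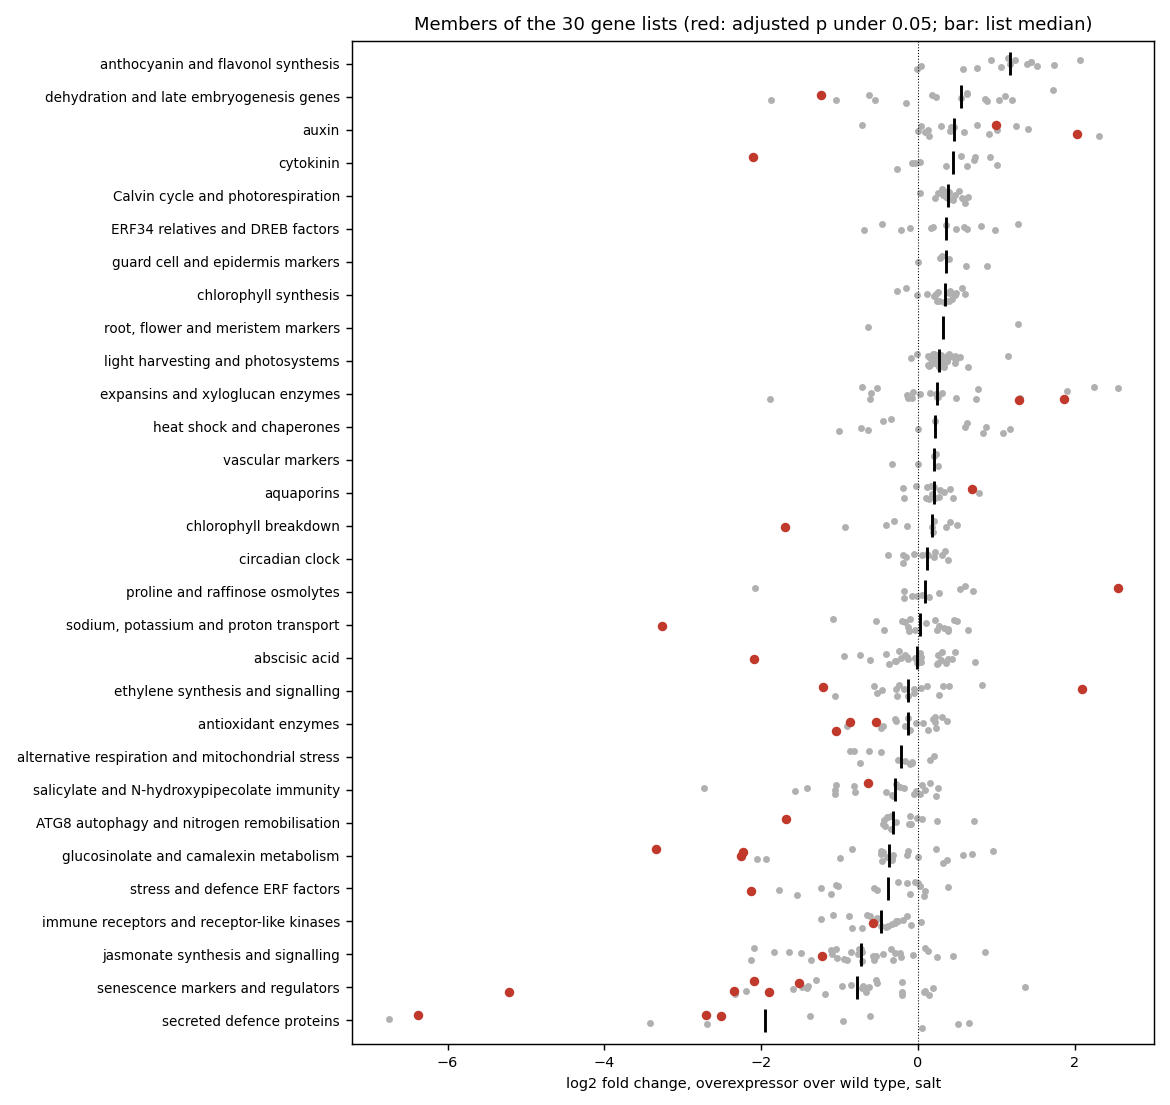
Log2 fold change of overexpressor over wild type in salt for the tested members of 30 gene lists, ordered by list median (black bar), with called genes in red. Secreted defence proteins have a median of -1.95, senescence genes of -0.78 and anthocyanin genes of 1.17, and 32 of 550 tested list genes were called, 7 higher and 25 lower.

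Genes higher in overexpressor salt leaves included a growth receptor and cell wall enzymes. ER, the ERECTA receptor kinase that promotes organ growth, was at 62.9, 44.7 and 58.0 CPM in overexpressor salt leaves, against 19.6, 20.6 and 14.5 CPM in wild type (log2 1.6, SE 0.18, adjusted p = 0.00396). GAE6, an enzyme for pectin precursors, was at 613 ± 75.5 CPM in the overexpressor and 306 ± 77.3 CPM in wild type (log2 1.0, SE 0.21, adjusted p = 0.0301). The expansins EXPA3 and EXPA5, which loosen walls, were 2.44-fold and 3.64-fold higher. They were the 2 calls among 24 expansin and xyloglucan genes (8.33%, against 4.39% of all genes). BGAL2, a beta-galactosidase (98.7 ± 16.7 CPM in the overexpressor and 46.6 ± 3.65 CPM in wild type), TPPE, a trehalose phosphate phosphatase, MES18, a methyl esterase, and TIFY8 were stable calls, as was ER. KCS10, of cuticle lipid synthesis, CaS, a thylakoid calcium sensor, THIC, of thiamine synthesis, and AT4G04340 were abundant genes with rises of 1.57-fold to 1.80-fold. The calls of GAE6, KCS10, THIC, CaS, AT4G04340, EXPA3 and EXPA5 were each lost without overexpressor replicate 3 and without wild-type replicate 3 (highest adjusted p = 0.157). Most of them were also lost without wild-type replicate 2, and some without overexpressor replicate 1 or 2.

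Some other large rises were in genes with low levels. SCPL7, a serine carboxypeptidase-like protein, was at 7.62, 18.7 and 15.8 CPM in overexpressor salt leaves, against 2.25, 1.59 and 2.41 CPM in wild type (log2 2.75, SE 0.39, adjusted p = 0.0104). AT4G28780, a GDSL lipase gene, averaged 5.15 ± 1.8 CPM in the overexpressor and 0.739 ± 0.252 CPM in wild type. The locus of the microRNA precursor MIR850, which overlaps AT4G13495 on the same strand, was 4.34-fold higher. AT3G06035 (a GPI-anchored protein), AT4G13990 (an exostosin-family protein) and the uncharacterised AT5G06270 were 4.43-fold, 6.14-fold and 4.9-fold higher. Without wild-type replicate 1 the log2 fold changes of AT3G06035 and AT4G13990 were 2.78 and 3.31, larger by over 1.5 times on the linear scale, and without overexpressor replicate 1 that of AT5G06270 was 1.68, smaller by as much. Each of these 6 calls was lost without wild-type replicate 2 or 3, and all but that of SCPL7 also without overexpressor replicate 3 (adjusted p up to 0.132). Some were also lost without overexpressor replicate 1 or 2.

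Other genes called lower included AT3G25490 and EDA9. AT3G25490, a protein kinase gene, was at 0.224, 0 and 0.164 CPM in overexpressor salt leaves, against 1.3, 13.9 and 4.14 CPM in wild type (log2 -5.5, adjusted p = 0.0228), with log2 -6.11 without overexpressor replicate 1 and -4.26 without wild-type replicate 2. EDA9, a phosphoglycerate dehydrogenase of serine synthesis, was at 163, 73.8 and 64.3 CPM in the overexpressor, against 241, 663 and 300.4 CPM in wild type (log2 -2, adjusted p = 0.0355). Both calls were lost without overexpressor replicate 2 or 3 or wild-type replicate 2 or 3 (highest adjusted p = 0.12).

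Plastid-encoded genes gave 6 higher and 0 lower calls among 88 tested (median log2 0.55), where 2.07% of all genes were called higher and 2.32% lower. psbT of photosystem II was at 6.35, 9.59 and 3.77 CPM in overexpressor salt leaves, against 1.77, 0.412 and 0.392 CPM in wild type (log2 2.96, adjusted p = 0.0291), with log2 4.0 without wild-type replicate 1, and ndhE was 5.8-fold higher (log2 2.54, or 3.41 without that library). rpl32 of the plastid ribosome was 3.31-fold higher, a stable call, and psaI, psaJ and ndhI were the other calls. The calls of psbT and ndhE were lost without overexpressor replicate 2 or 3 or wild-type replicate 2 or 3 (highest adjusted p = 0.114). The plastid share of all counts was 0.342%, 0.579% and 0.219% in the overexpressor and 0.427%, 0.259% and 0.197% in wild type, which overlap. Libraries were poly(A)-selected, and the part of RNA selection or quality in these values was not tested.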

How the data were processed

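Poly(A) RNA of leaves was sequenced in 12 libraries with a strand-specific Illumina kit, per the labels' protocols. Tools listed by the submitters' processing notes are TopHat and Cufflinks, and the build is TAIR10, without versions. The authors deposited whole-number read counts per gene, not normalised, and a TMM-normalised signal, used here as an alternative input. The strand setting of the counting is not given in the sources used here. Entries without a gene name (7, holding 0.382% to 0.897% of counts) were left out.

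Counts were tested with edgeR 4.0.16 in R 4.3.3 (robust quasi-likelihood F test, TMM factors, filterByExpr, 1 model of 4 groups with 8 residual degrees of freedom, Benjamini-Hochberg adjustment over 18886 genes). Adjusted p-values come from this test where no tool is named. The SE was obtained by dividing the log2 fold change by the root of F. The script was tested on simulated data. Alternatives used DESeq2 1.42.0 and limma 3.58.1 (log2 of signal + 0.5), other scalings and filters, a replicate block and libraries left out. Loci were matched to RefSeq TAIR10.1 (32835 of 33597), the source of the promoter sequences.

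The members and the 30 lists were chosen with earlier results of these data known. Named genes were ERF34, 7 anchors of the study's theme, and up to 4 called members per list with at least 1 CPM. Genes at 0 counts in 1 genotype were also named. Added to these were the 12 largest rises and 12 largest falls with at least 5 CPM, and the 6 largest each way with at least 200 CPM. Such rises and falls were taken only from called genes without overlap between the 3 libraries of each genotype. Stable calls, genes called in both treatments and others outside this rule were named after their values were seen. Replicates are independent biological ones by the labels.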

Additional observations from a re-analysis of the deposited data

How the results depend on the processing

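The direction of each called named gene was the same under each alternative run, whereas NYE1, not called, reached a log2 fold change of 0.06 with 1 salt library left out. With DESeq2, 1799 genes were called in salt (820 higher, 979 lower), 200 in mock and 659 for the interaction. When only the 2 groups compared were fitted, 13 genes were called in salt (3 higher, 10 lower) and 4 in mock. The interaction count of 0 became 51 with limma, 11 with library totals in place of TMM and 8 with no filter on low counts. Leaving out 1 library of the 12 gave 45 to 1017 calls in salt (16 to 452 higher, 29 to 565 lower), 3 to 18 in mock and 0 to 73 for the interaction. Upper quartile scaling, library totals, both filters, non-robust estimation and limma gave 617 to 933 calls in salt, within 1.5 times the main count. Thinning every library to the smallest total, an alternative chosen after seeing the data, gave 717 calls, 658 of them shared with the 829.

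Replicate numbers do not pair the libraries by the labels. The correlation of deviations was over 0.1 in 17 of 18 same-numbered pairs (highest 0.73) and at most 0.324 between different numbers, but it was -0.025 for replicate 2 of the 2 salt groups. In salt, 4 of 6 libraries correlated best with their own number. A block for the replicate number raised the calls to 2344 in salt (1173 higher, 1171 lower) and 379 for the interaction. With the block and only the 2 groups compared, 620 were called in salt (173 higher, 447 lower) and 372 in mock. NAP, not called in the main test, also passed with the block (adjusted p = 0.0393). Depth limits low genes most, since a count of 0 allows up to 0.0812 CPM in overexpressor salt leaves.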

Other observations

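Gene families grouped by annotation were chosen after their values were seen and therefore not tested as sets. They are given as counts beside the 4.39% of all genes called. Some of their members are also in the lists, such as WRKY45 in the senescence list. Of 32 tested genes annotated as class III peroxidases, enzymes of the cell wall and of defence, 10 were lower in overexpressor salt leaves and 0 higher (31.2%). PRXCB was at 189 ± 19.4 CPM in the overexpressor and 497 ± 115 CPM in wild type (log2 -1.4, adjusted p = 0.0218), and PRXCA was at 3.79 ± 2.5 CPM in the overexpressor and 38 ± 21.6 CPM in wild type. The call of PRXCB was lost without overexpressor replicate 3 or wild-type replicate 2 or 3, and that of PRXCA without any salt library but wild-type replicate 1 (highest adjusted p = 0.109). The median log2 fold change of the family was -1.13 in salt and 0.14 in mock.

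Of 38 glutathione S-transferase genes 6 were lower and 0 higher (15.8% called), and of 53 WRKY genes 5 were lower and 0 higher (9.43%). Cytochromes P450 had 3 higher and 9 lower of 121 (9.92%). Nearer the share of all genes were NAC factors (4.62% of 65), UDP-glycosyltransferases (6.25% of 96), receptor-like proteins (6.67% of 45) and MATE transporters (7.69% of 39). The GDSL lipase genes were mixed, with 6 higher and 4 lower of 44 (22.7%). GLIP1, a defence lipase, was 14.6-fold lower, a call lost without any salt library but wild-type replicate 1 (highest adjusted p = 0.0937). Leucine-rich repeat kinases were mostly higher where called, with 12 higher and 2 lower of 129 (10.9%).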
